A study of Mus musculus with 34 samples.

Results

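The DNA contacts of the immunoglobulin heavy chain locus Igh were described within a single mouse tumor, the plasmacytoma TEPC1165. All 4C libraries of this tumor made with an IgH bait and a Hind enzyme (HindIII) were taken, which gave 2 of the 34 samples of the series, called replicate 1 and replicate 2. Each library was read over the same 12836 windows of 200 kb. The series profiles mouse plasmacytomas and activated B cells by ChIP-seq, RNA-seq and 4C. The labels give TEPC1165 the strain Balb/c and give no genotype, treatment, age or time point. They do not say that the 2 libraries came from separate cultures, so the spread between them may be technical. All values describe this tumor alone. The 4C libraries of a second plasmacytoma, PCT4961 (Balb/c, genotype AID-/- BclXL), entered only a check for shared reads.

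Circular chromosome conformation capture (4C) cuts crosslinked chromatin with a restriction enzyme, ligates the ends and amplifies whatever was joined to a chosen bait fragment. Reads are therefore high beside the bait, fall with distance along the same chromosome and are sparse on other chromosomes. Plasmacytomas are tumors of antibody-secreting cells. In mouse plasmacytomas Igh on chromosome 12 is commonly joined by translocation to chromosome 15 at or near Myc, which encodes a growth-promoting transcription factor, or Pvt1, the non-coding RNA gene next to it. Sequence joined to the bait chromosome is then read in cis.

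The windows were grouped into chromosome 12 by distance from 12:114400001-114600000, called the bait window, chromosome 15 below and from the window that starts at 61.8 Mb (the split point), and the 17 other autosomes as background. Coordinates are those of mouse build mm9. In the order of genes of a RefSeq table of another build, GRCm38, the genes after Myc at rising coordinates are Pvt1, Gsdmc, Gsdmc2, Gsdmc3, Gsdmc4, Cyrib, Asap1 and Adcy8. On its lower side lie A1bg, Lratd2, Trib1 and Nsmce2. Around Igha, the last of the heavy chain constant genes, Tmem121, Tedc1, Crip1 and Mta1 lie towards lower coordinates. The other constant genes follow towards higher coordinates. These orders name neighbours, and no gene was placed in a window here.

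Replicate 1 held 1890718 reads and replicate 2 held 1776498. Of 823057 HindIII fragments, 10295 and 9191 had at least 1 read and are called detected. Each detected fragment carried 184 and 193 reads on average, so a few fragments can set the reads of a window. The 10 highest windows held 29.5% and 41.4% of the reads. A level is given as reads per 100 HindIII fragments of a region, beside the share of its fragments detected, which counts each fragment once. Fragment shares have 95% Wilson intervals, which cover counting error only because amplified reads are not independent molecules. No p-value is given, since a sign permutation over 2 libraries cannot go below 0.5.

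Reads may be shared between same-numbered libraries of the 2 tumors. Over the 10911 background windows, the log2 reads of the TEPC1165 replicates correlated at r = 0.116. Replicate 1 correlated with PCT4961 replicate 1 at r = 0.645 and replicate 2 with PCT4961 replicate 2 at r = 0.635. The windows share their fragment number and most are empty, so these are descriptions. Results that rest on few reads are therefore also given after 2.34% (replicate 1) and 1.51% (replicate 2) of the PCT4961 reads were subtracted per window. These shares are the TEPC1165 to PCT4961 read ratios over 12:12000001-14000000.

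The reads were concentrated on chromosome 15 above the split point. Its 209 windows held 701988 reads in replicate 1 and 769747 in replicate 2, or 37.1% and 43.3% of the libraries. The whole of chromosome 12, which carries the bait, held 20.3% and 22.85%. The 17 background autosomes together held 40.1% and 32.1%. Chromosome 15 below the split point held 6609 and 10371 reads, or 0.35% and 0.58% of the libraries. Thus a stretch of chromosome 15 took more reads than the chromosome of the bait in both libraries. A single window, the first above the split, held 40.3% and 49.8% of the reads of that stretch. This order in reads thus rests in part on that window. In detected fragments chromosome 12 had more, 2694 and 2720 against 1194 and 1129.

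**Figure D1:**
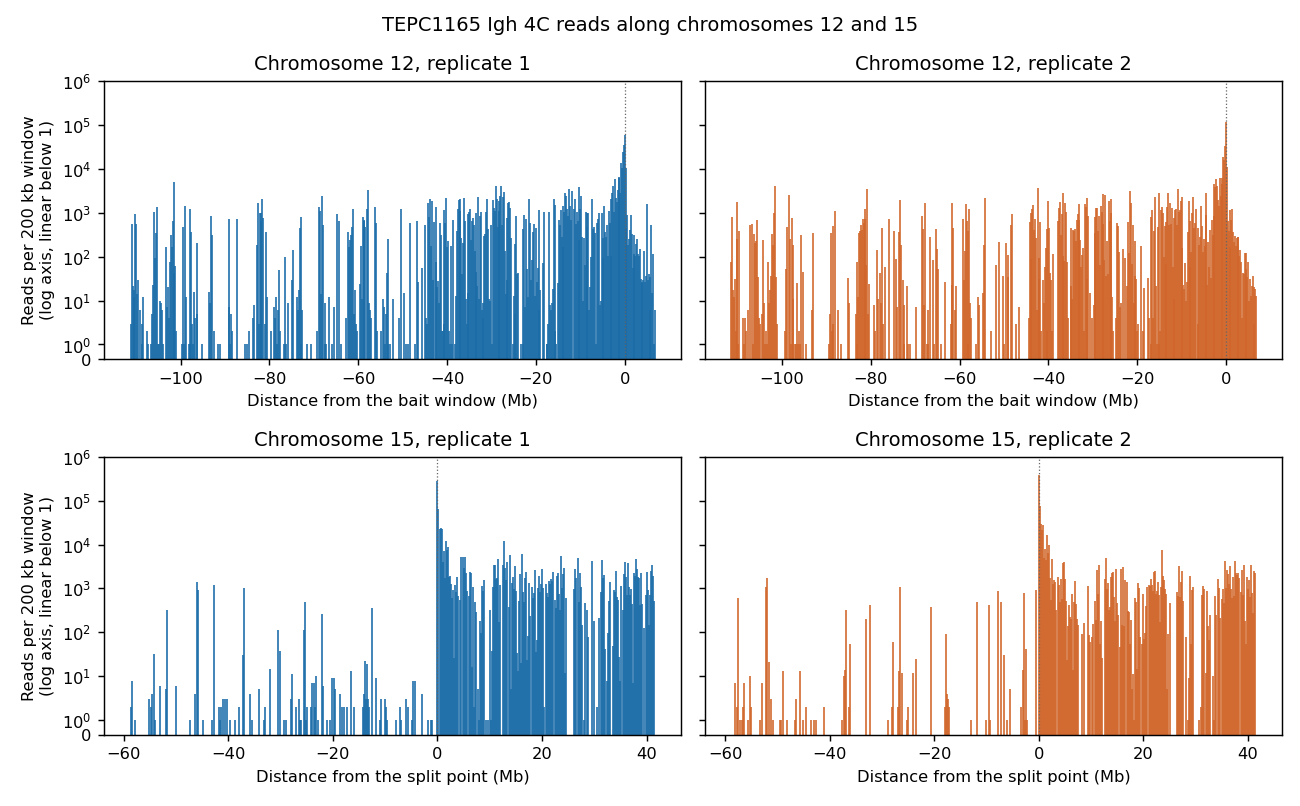
Reads per 200 kb window (vertical, log axis that is linear below 1) against distance in Mb from the bait window on chromosome 12 (top) or from the split point on chromosome 15 (bottom), for replicate 1 (left) and replicate 2 (right). Chromosome 15 steps from at most 1 and 927 reads per window in the 1 Mb below the split to 282973 and 382973 reads in the first window above it.

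The step on chromosome 15 fell between neighbouring windows. The window 15:61800001-62000000 had 282973 reads in replicate 1 and 382973 in replicate 2, on 57 and 60 of its 69 fragments. It was the highest window of both libraries, above the bait window, and held 40.3% and 49.8% of all reads of chromosome 15 above the split. In the 5 windows directly below it, replicate 1 had 1 read on 1 of 354 fragments. Replicate 2 had 927 reads there, all in 1 window and on 2 of the 354 fragments. No window of that 1 Mb was read in both libraries. In the background 16.7% of windows were, so 5 windows are too few for this to set them apart.

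Directly above the split point the reads fell quickly and then unevenly. Window 15:62000001-62200000 had 63702 and 74536 reads on 50 and 52 of 58 fragments. Window 15:62200001-62400000 had 22823 and 29787 reads. The next windows, 15:62400001-62600000 and 15:62600001-62800000, had 23634 and 21469, and 22307 and 28035 reads. Together with the first window these had the highest reads of the chromosome in both libraries. At 1.0 Mb from the split the reads dropped to 3921 and 4837, and at 1.6 Mb they stood at 12336 and 16085. That local rise was present in both libraries.

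Summed over the arm, chromosome 15 above the split had 5751 and 6306 reads per 100 fragments. Below it the level was 33.05 and 51.9. The log2 difference was 7.44 and 6.93 (mean 7.18 ± 0.37 SD, n = 2). Among fragments, 9.78% (9.27 to 10.3) and 9.25% (8.75 to 9.78) were detected above, against 0.555% (0.461 to 0.668) and 0.450% (0.366 to 0.553) below. The fragment intervals of the 2 sides did not overlap in either library. The split point was chosen with earlier results of these data known, so this describes the sides and is no test. The difference was 174- and 122-fold in reads and 17.6- and 20.6-fold in detected fragments. Without the windows up to 5 Mb on either side of the split, the mean log2 read difference was 5.42.

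By band of distance, the level stayed above the background up to the last band of chromosome 15. Across distance bands above the split, the level was 42889 and 49894 reads per 100 fragments up to 1 Mb (without the first window), 12970 and 15483 at 1 to 2 Mb, and 2532 and 2727 at 2 to 5 Mb. It was lowest at 5 to 10 Mb, with 1248 and 414. It stood at 3043 and 1526 at 10 to 20 Mb. From 20 Mb to the end of the chromosome at 41.6 Mb it was 1876 and 1739. The level was thus higher beyond 10 Mb than at 5 to 10 Mb in both libraries. Detected fragments also had their lowest share there, with 3.15% and 2.33% against 9.71% and 7.94% at 10 to 20 Mb. Beyond 20 Mb, 7.36% and 6.94% were detected. Within that band the level had gaps. It was 0 and 160 reads per 100 fragments at 25 to 26 Mb. At 30 to 31 Mb it was 77.1 and 1.08, under the background level of 108 and 81.6. The last window, at 41.6 Mb, had 0 reads in both libraries.

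More than 20 Mb above the split, the level was 17.3- and 21.3-fold that of the background autosomes, a log2 difference of 4.11 and 4.41 (mean 4.26 ± 0.21 SD, n = 2). Detected fragments were 8.56- and 9.67-fold more frequent. Among windows chosen after their values were seen, the highest beyond 5 Mb by its lower library was 15:85400001-85600000, with 5355 and 7342 reads on 19 and 15 of 56 fragments. The next was 15:74600001-74800000, with 11923 and 4854 reads on 24 and 19 of 74 fragments. Both rested on many fragments in each library.

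**Figure D2:**
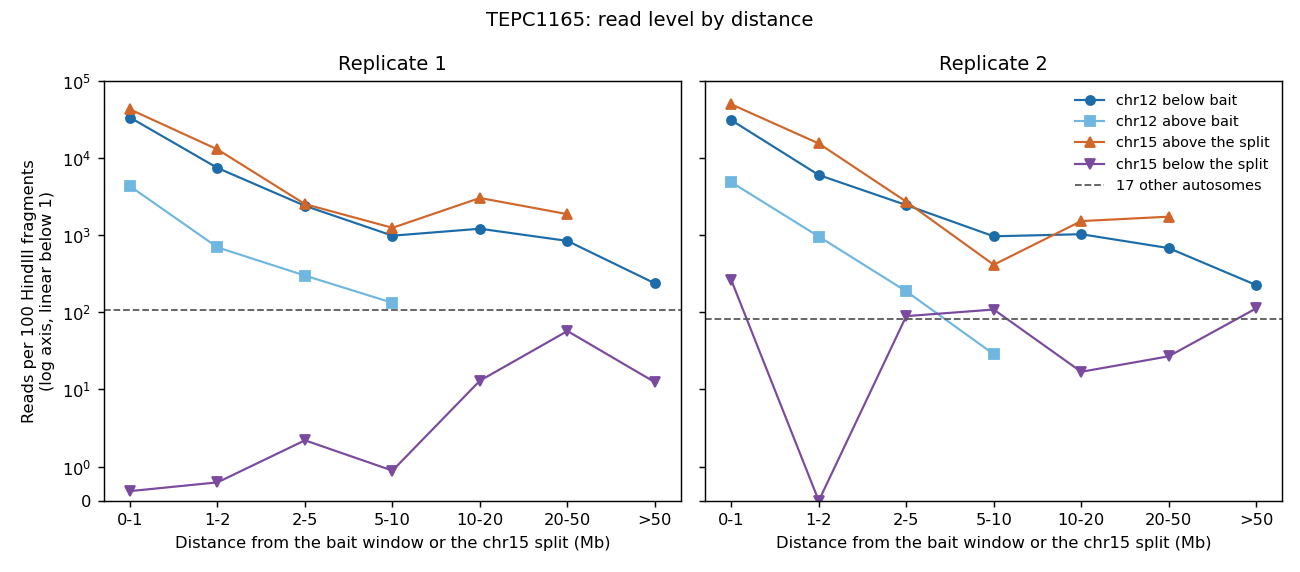
Reads per 100 HindIII fragments (log axis that is linear below 1) by band of distance in Mb from the bait window or the split point, for replicate 1 (left) and replicate 2 (right), with 1 line per side and the 17 other autosomes dashed. Chromosome 15 above the split, which ends at 41.6 Mb, runs close to or above chromosome 12 below the bait except at 5 to 10 Mb in replicate 2, and chromosome 15 below the split starts at 0.282 and 261.9.

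Taken as a whole, chromosome 15 below the split point was lower than the background in reads and in detected fragments. Its level was 33.05 and 51.9 reads per 100 fragments, against 108 and 81.6 on the 17 background autosomes. The log2 difference was -1.71 and -0.65 (mean -1.18 ± 0.75 SD, n = 2), so its size differed between the libraries. Its share of detected fragments was 0.646 and 0.628 times that of the background, where 0.860% (0.838 to 0.882) and 0.717% (0.697 to 0.737) were detected. In that share it was below each of the 17 background autosomes in both libraries. The lowest of them, chromosome 8, had 0.608% and 0.565%, and its replicate 1 value lies within the interval of chromosome 15 below the split. Chromosome X, outside the background, had 0.535% and 0.443%, so the low share was not particular to this arm. In reads, chromosome 15 below the split was below all 17 in replicate 1, while 3 autosomes were lower in replicate 2. By band of distance, the read level of replicate 1 was under the background in every band. In replicate 2 it was 3.21-fold the background up to 1 Mb, 1.09-fold at 2 to 5 Mb and 1.33-fold at 5 to 10 Mb. Beyond 50 Mb it was 1.38-fold, and the other bands of replicate 2 were under the background. With only windows of at least 2 detected fragments, the log2 difference was -1.86 and -0.06.

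The reads of that side rested on scattered fragments. In replicate 1 the bands up to 1, 1 to 2, 2 to 5 and 5 to 10 Mb below the split had 1, 2, 21 and 15 reads. In replicate 2 they had 927, 0, 857 and 1852 reads. The 0 reads at 1 to 2 Mb were over 372 fragments, which allows a share of detected fragments of up to 0.806% when 3 counts are taken as the limit (95% Wilson upper limit 1.02%). Of windows with reads, 85.3% and 81.9% were read on 1 fragment, against 70.3% and 71.7% in the background. Chromosome X had 81.2% and 85.9%, so this was not particular to this side. No window of the 294 had 100 or more reads in both libraries, against 1.22% of the background windows and 1 of 818 on chromosome X. The background share is low, so this 0 is not read as a difference. The 3 windows with the highest lower library were 15:24800001-25000000 (1049 and 14 reads), 15:34000001-34200000 (11 and 61) and 15:24600001-24800000 (30 and 10), none with more than 2 detected fragments in a library.

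On chromosome 12 the bait window had 58599 reads in replicate 1 and 114668 in replicate 2, on 32 of 38 fragments in each. Towards lower coordinates the next 5 windows, from the one beside the bait window outwards, had 34482 and 33184, 23619 and 16088, 10426 and 18534, 13423 and 4403, and 2795 and 6090 reads. Towards higher coordinates the next 5 had 10313 and 11283, 457 and 660, 911 and 383, 180 and 168, and 256 and 1151 reads. The lower side thus had more reads than the higher side at each of these 5 distances in both libraries. Over this 1 Mb, detected fragments were 61.9% and 59.9% on the lower side and 57.1% and 58.6% on the higher side.

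On the lower side the level fell with distance up to 10 Mb in both libraries. Up to 1 Mb it was 33629 and 31071 reads per 100 fragments, and the band from 1 to 2 Mb had 7453 and 6037. From 2 to 5 Mb it was 2407 and 2460, and the band of 5 to 10 Mb had 986 and 968. From 10 to 20 Mb it was 1214 and 1031, and the band of 20 to 50 Mb had 844 and 681, while 237 and 226 were left beyond 50 Mb. The level at 10 to 20 Mb was thus slightly above that at 5 to 10 Mb in both libraries, and the 2 bands beyond it were lower. Within the band of 20 to 50 Mb the level did not fall steadily. It was 395 and 462 at 20 to 25 Mb and 2208 and 1318 at 25 to 30 Mb. The slope of log10 level on log10 distance over the 5 bands from 1 to 50 Mb was -0.66 and -0.68 (mean -0.67 ± 0.02 SD, n = 2). On chromosome 15 above the split it was -0.51 and -0.69 (mean -0.60 ± 0.13 SD, n = 2). With detected fragments the slopes were -0.56 and -0.58 on chromosome 12 against -0.42 and -0.46 on chromosome 15. In bins of 1 Mb the read slopes averaged -0.95 and -0.31. The slope of chromosome 15 was thus the flatter in both libraries on these measures, while over the read bands this held in replicate 1 alone. The ranges differ, since the chromosome 15 fits reach at most 41.6 Mb and those of chromosome 12 take in 45 to 50 Mb. There the level was 79.9 and 109 reads per 100 fragments. The part of this range in the difference of the slopes was not tested. The first window of the lower side without reads lay at 6.8 Mb in replicate 1 and at 6.6 Mb in replicate 2.

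Named windows of the lower side beyond 1 Mb lay mostly near the bait. Window 12:113000001-113200000 had 6237 and 6328 reads, 12:112200001-112400000 had 5772 and 5884, and 12:111800001-112000000 had 4057 and 4521. Farther out, 12:87200001-87400000 had 2967 and 2551 reads on 9 and 15 of 64 fragments. Window 12:12800001-13000000, at 101.6 Mb, had 4908 and 4077 reads. PCT4961 had 170587 and 237211 reads in that window, and the TEPC1165 reads were 2.88% and 1.72% of these. It lies in the region from which the shared reads were estimated, so its TEPC1165 reads cannot be told apart from shared ones.

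More than 50 Mb below the bait the level was 2.19- and 2.76-fold that of the background autosomes, a log2 difference of 1.13 and 1.47 (mean 1.30 ± 0.24 SD, n = 2). After subtraction of the possibly shared reads it was 0.94 and 1.27. Detected fragments were 3.06- and 3.88-fold more frequent, without any correction for shared reads. They include the bin at 100 to 105 Mb, which holds the region used to estimate the shared reads. In that bin 11.0% and 11.2% of fragments were detected, so the fragment ratio may be raised by shared reads. In reads, the far lower side of chromosome 12 stood above the background in both libraries, and far less so than the far end of chromosome 15.

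The 2 sides of the bait differed widely in reads and had similar shares of detected fragments. At more than 1 and up to 5 Mb, the lower side had 3616 and 3317 reads per 100 fragments and the higher side 391 and 365. The log2 difference was 3.21 and 3.18 (mean 3.20 ± 0.02 SD, n = 2). After subtraction it was 3.71 and 3.70. The share of fragments detected was 26.9% and 26.5% on the lower side against 27.8% and 29.4% on the higher side, a log2 difference of -0.05 and -0.15.

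Fragments of the higher side carried few reads each. Beyond 1 Mb, its 29 windows held 5649 and 4731 reads on 390 and 395 of 1826 fragments, so 14.5 and 11.98 reads per detected fragment, against 113 and 98.4 on the lower side beyond 1 Mb. PCT4961 had 72430 and 100426 reads on these 29 windows, and those of TEPC1165 were 7.80% and 4.71% of them. Subtraction removed 29.6% and 31.9% of the TEPC1165 reads of this side and 4.89% and 5.05% of those of the lower side. The part of shared reads in its detected fragments was not tested. The highest windows of this side were 12:115800001-116000000 with 904 and 1204 reads, 12:115600001-115800000 with 396 and 695, and 12:116000001-116200000 with 324 and 358.

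**Figure D3:**
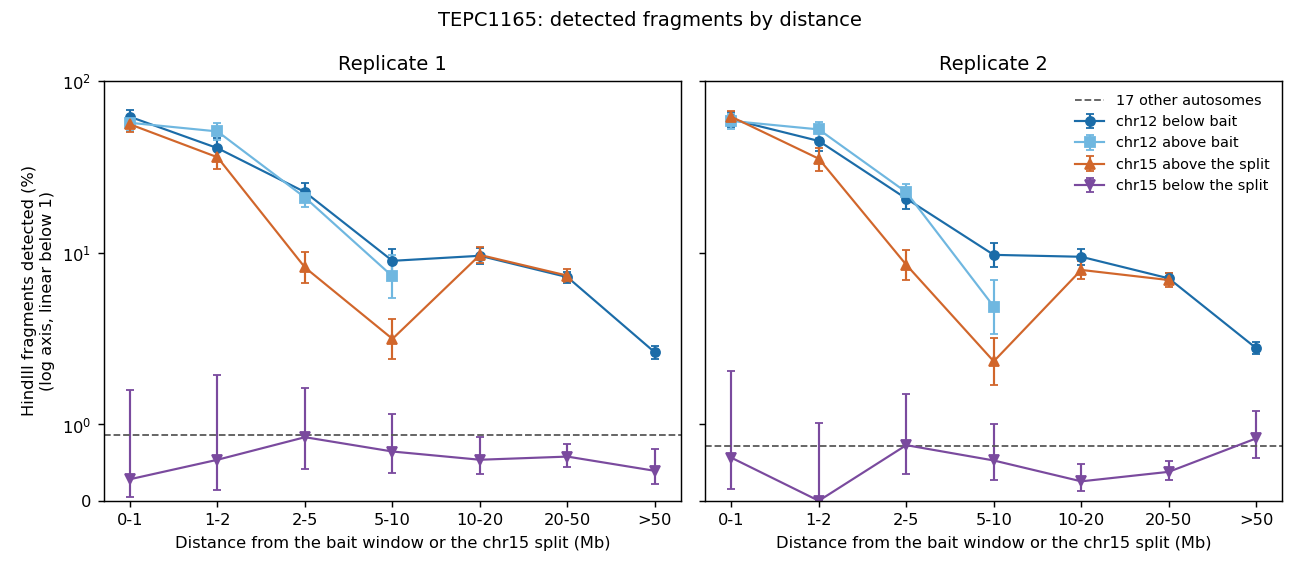
Share of HindIII fragments with at least 1 read, in percent (log axis, linear below 1), by band of distance in Mb from the bait window or the split point, for replicate 1 (left) and replicate 2 (right), with 1 line per side and the 17 other autosomes dashed. Bars are 95% Wilson intervals. At 2 to 5 Mb both sides of the bait lie between 20.7% and 22.6%, while chromosome 15 below the split stays at or under 0.833% in every band.

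At equal distance, chromosome 15 above the split and chromosome 12 below the bait had levels of the same order. From more than 1 to 10 Mb, chromosome 15 had 2874 and 2733 reads per 100 fragments and chromosome 12 had 2122 and 1983. The log2 difference was 0.44 and 0.46 (mean 0.45 ± 0.02 SD, n = 2). In detected fragments the order was the opposite, with 8.21% and 7.79% on chromosome 15 against 16.7% and 16.9% on chromosome 12. Reads and fragments thus gave different orders. By band, the chromosome 15 to chromosome 12 read ratio was 1.74 and 2.56 at 1 to 2 Mb. From 2 to 5 Mb the ratio was 1.05 and 1.11, and the band of 5 to 10 Mb had 1.27 and 0.428. From 10 to 20 Mb it was 2.51 and 1.48, and the band of 20 to 40 Mb had 1.78 and 2.02. The 5 to 10 Mb band was the only one of these in which the libraries gave opposite orders.

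Windows of at least 1 read in both libraries separated the regions. In the background 16.7% of 10911 windows were read in both. On chromosome 15 above the split 164 of 209 (78.5%) were, and below it 27 of 294 (9.18%). On chromosome 12 beyond 1 Mb there were 290 of 550 (52.7%) on the lower side and 29 of 29 on the higher side. With at least 10 reads in both libraries, the background share was 4.84%, against 148 of 209 windows above the split, 3 of 294 below it, 197 of 550 on the lower side of chromosome 12 and 24 of 29 on the higher side. With at least 100 reads in both, the background share was 1.22%, and chromosome 15 had 126 of 209 above the split and 0 of 294 below. Chromosome 12 had 125 of 550 on the lower side and 11 of 29 on the higher side. At 1000 reads the background share was 0.0183%, with 55 windows above the split, 37 on the lower side of chromosome 12 and 0 on the other sides. Chromosome 15 stood over the background share above the split at each of these thresholds. Below the split it stood under the background share at 1 and 10 reads. After subtraction of the possibly shared reads, windows of at least 1 read in both libraries numbered 161 above the split, 14 (4.76%) below it, 211 on the lower and 23 on the higher side of chromosome 12, and 1145 (10.5%) in the background. With at least 10 reads, 0 of 294 were then left below the split and 3.79% of the background. The subtraction leaves fractions of reads, so a window exactly at a threshold drops out with any PCT4961 reads there. Window 15:24600001-24800000, with 30 and 10 reads, was lost in this way. Part of these falls thus follows from the threshold.

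Window by window, the replicates correlated most within 5 Mb of the bait and least below the split. Between the replicates, log2 reads correlated at r = 0.880 over the 51 windows within 5 Mb of the bait, at r = 0.581 over the 209 windows of chromosome 15 above the split and at r = 0.618 over the 550 of the lower side of chromosome 12 beyond 1 Mb. Below the split it was r = 0.0257 over 294 windows. The windows share library depth and fragment number, so these describe the libraries. With the same-numbered PCT4961 library, r was lower within 5 Mb of the bait, at 0.708 and 0.689. It was higher in the other regions, at 0.905 and 0.826 above the split, 0.773 and 0.776 on chromosome 12, and 0.554 and 0.622 below the split. Above the split PCT4961 had 42957 and 50648 reads, against 701988 and 769747 in TEPC1165. The subtraction removed 0.143% and 0.0966% of the TEPC1165 reads there. The part of shared reads in these correlations, and their direction, was not tested.

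In bins of 5 Mb, a bin was called where its level exceeded the 95th percentile of 450 background bins (319 and 272 reads per 100 fragments) in both libraries. This held for 0.667% of background bins. It held for 8 of 8 bins of chromosome 15 above the split, all of which also exceeded the highest background bin (680 and 486). It held for 0 of 12 bins below the split, of which 7 were under the background median (88.5 and 58.8) in both libraries, as were 139 of the 450 background bins. On chromosome 12 it held for 12 of 22 bins below the bait and for the 1 bin above it. With detected fragments in place of reads the background share was 3.11%, with 8 of 8, 0 of 12, 13 of 22 and 1 of 1 bins called. Detected fragments were not corrected for shared reads.

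**Figure D4:**
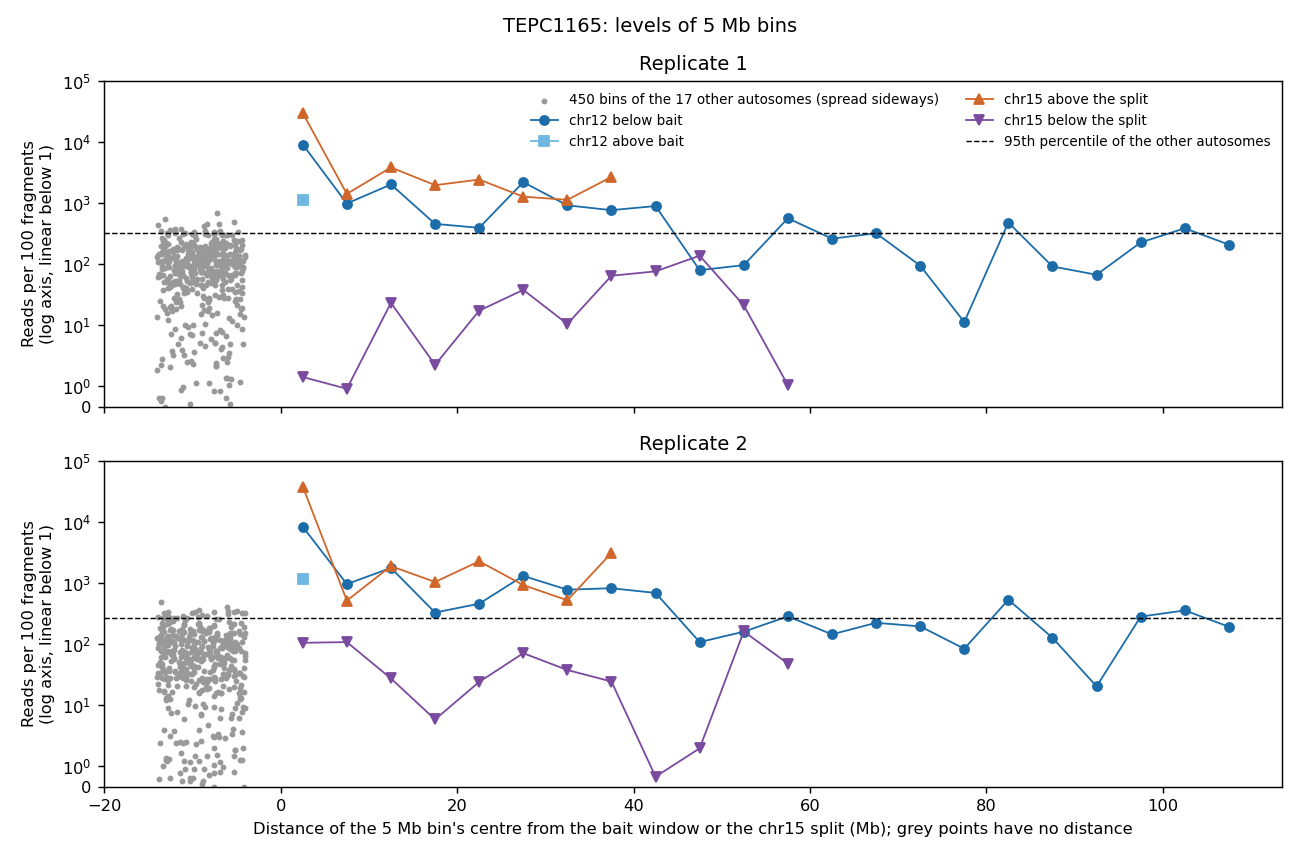
Reads per 100 HindIII fragments of each 5 Mb bin (log axis that is linear below 1) by distance in Mb from the bait window or the split point, for replicate 1 (top) and replicate 2 (bottom), with the 450 background bins as grey points without a distance and their 95th percentile dashed. All 8 bins of chromosome 15 above the split exceed the 95th percentile, none of the 12 below does so in both libraries, and chromosome 12 drops from 897 and 694 to 79.9 and 109 between 40 to 45 and 45 to 50 Mb below the bait.

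The called bins of chromosome 12 formed a block. All 9 bins from the bait to 45 Mb below it were called. At the 99th percentile of the background bins, those at 15 to 20 Mb and 20 to 25 Mb were not, and 8 of the 22 bins of this side were called in place of 12. The level was 897 and 694 reads per 100 fragments at 40 to 45 Mb and 79.9 and 109 at 45 to 50 Mb, against background medians of 88.5 and 58.8. Beyond 5 Mb from the bait, the lowest bins of the block were those at 15 to 20 Mb (458 and 331) and 20 to 25 Mb (395 and 462). The highest were those at 10 to 15 Mb (2025 and 1781) and 25 to 30 Mb (2208 and 1318). These were the lowest and highest pairs in both libraries. Detected fragments were 2.77% and 2.46% in the bin at 15 to 20 Mb and 15.2% and 15.4% in that at 25 to 30 Mb.

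Beyond the block, 3 of 13 bins were called, and at the 99th percentile the bin at 80 to 85 Mb alone. The bin at 80 to 85 Mb had 481 and 536 reads per 100 fragments and that at 55 to 60 Mb had 565 and 287. The bin at 100 to 105 Mb had 388 and 359 but 58.4 and 43.2 after subtraction. It holds the region used to estimate the shared reads, so the subtraction lowers it by construction.

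On chromosome 15 above the split, the bins were also uneven. The bin at 10 to 15 Mb had 3850 and 1907 reads per 100 fragments. Levels of 2435 and 2289 were found at 20 to 25 Mb, and the last bin, 35 to 40 Mb, had 2687 and 3143. The 3 lowest of the 8 bins were the same in both libraries, namely 5 to 10 Mb (1416 and 519), 25 to 30 Mb (1278 and 932) and 30 to 35 Mb (1134 and 526). The lowest of them still exceeded the highest background bin of its library.

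The background autosomes were sparsely and unevenly read. By chromosome, the level ran from 67.0 to 184 reads per 100 fragments in replicate 1 and from 35.2 to 111 in replicate 2, with chromosome 8 lowest and chromosome 10 highest in both. Of the 10911 windows, 133 had at least 100 reads in both libraries, and 2 had at least 1000. The window with the highest lower library was 14:108400001-108600000, with 1988 and 1849 reads on 3 and 4 of 75 fragments. Next came 16:19000001-19200000, with 1373 and 1380 reads on 8 and 9 of 59 fragments. Windows 4:149000001-149200000 (1905 and 967 reads), 17:39800001-40000000 (1895 and 963) and 16:13600001-13800000 (1538 and 961) rested on at most 2 fragments per library.

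Few background windows were read on many fragments. At least 5 fragments in both libraries were detected in 8 of 10911 background windows and in 69 of 209 on chromosome 15 above the split. On chromosome 12 beyond 1 Mb this held for 118 of 550 windows on the lower side and 20 of 29 on the higher side. Below the split it held for 0 of 294. The background share is so low that this 0 does not set the side below the split apart from the background. Among the 8, chosen after their values were seen, 6:70600001-70800000 had the most fragments, 14 and 13 of 58, with 766 and 936 reads. PCT4961 had 3542 and 4096 reads there, so the TEPC1165 reads were 21.6% and 22.9% of these, above the shares used for subtraction. Window 16:19000001-19200000, named above, was also among them.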

How the data were processed

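HindIII 4C reads with an IgH bait were deposited, per the file headers, as counts for 200 kb windows of mm9, with the number of HindIII fragments and of fragments with reads. These deposited counts were not normalized. The aligner, the exact bait position and the handling of PCR copies remain not given in the sources used here. The regions, the split point and the lists were chosen with earlier results of these data known.

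Levels are reads per 100 fragments, summed over a region and computed per library, with the mean and SD over 2 libraries. Percentages of chromosomes are of all reads of a library. The named windows are the bait window, those within 1 Mb, and the 5 (3 for chromosome 12 above the bait and chromosome 15 below the split) with the highest lower library per region. Bins of 5 Mb needed at least 10 windows. A count of 0 was taken to allow up to 3 counts. No test between groups was made, because regions of a library are not replicates. Correlations used log2(reads + 1). The calculations were tested on simulated data. Alternatives were other measures (detected fragments, mean reads per window), other filters, subtraction of possibly shared reads and each library alone. Python 3.11.15 was used with pandas 2.3.3, numpy 2.4.6, scipy 1.17.1 and matplotlib 3.10.9. Depth was 1890718 and 1776498 reads.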

Additional observations from a re-analysis of the deposited data

How the results depend on the processing

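Of 139 alternative values, 100 stayed within the spread or 1.5 times the count, 37 moved and 2 changed sign. Differences are mean log2 values. For differences and slopes, each library alone lies within the spread of the 2 libraries by construction. The filter of at least 10 fragments per window left the values nearly unchanged. The 100 therefore include values that could not move, and their number is no measure of robustness. With detected fragments in place of reads, the lower over the higher side of chromosome 12 became -0.10 and chromosome 15 over chromosome 12 at equal distance -1.07. The other values on that measure were 4.25 for chromosome 15 above over below, 3.19 for its far part and 1.78 for far chromosome 12 over background, slopes of -0.57 (chromosome 12) and -0.44 (chromosome 15), and 14 background bins called. With only windows of at least 2 detected fragments, above over below was 8.05, far chromosome 15 5.33, far chromosome 12 2.08 and equal distance 0.41. Without the highest window of each region, above over below was 6.45, lower over higher 3.31 and equal distance 0.35, and without 5 Mb on either side of the split above over below was 5.42. With mean reads per window, lower over higher was 3.04, equal distance 0.59 and the chromosome 12 slope -0.61; in bins of 1 Mb the slopes were -0.95 (chromosome 12) and -0.31 (chromosome 15). After subtraction of possibly shared reads, lower over higher was 3.70, equal distance 0.49, and windows read in both libraries 14 below the split and 1145 in the background. A stronger subtraction, 4.57% and 4.45% of the PCT4961 reads, was chosen after seeing the data. It gave far chromosome 12 1.05, lower over higher 4.28, equal distance 0.55, and windows read in both libraries 13 below the split, 189 on the lower and 13 on the higher side of chromosome 12, and 1023 in the background. In both subtractions a window with 1 read in a library drops out with any PCT4961 reads there. Part of these falls in window counts thus follows from the threshold. At the 99th percentile 0 background bins and 8 in place of 12 bins of chromosome 12 below the bait were called. With 1 library alone, windows read were 72 to 95 below the split and 3586 to 4228 in the background, and 23 background bins were called with either; fewer libraries have to pass by construction. Apart from that and from the fragments that count once, the cause was not tested. No paired analysis was possible because a single group was used and no test between groups was made. Chromosome 15 below the split had few reads to compare, with 199 and 222 of its 294 windows empty and most of the others read on 1 fragment.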

Other observations

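Chromosome X, which belongs to none of the compared regions, had 76.8 and 37.2 reads per 100 fragments, and 0.535% and 0.443% of its fragments were detected. Its share of detected fragments was below that of each of the 17 background autosomes in both libraries. Of its 818 windows, 74 (9.05%) had at least 1 read in both libraries and 1 had at least 100.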
